A study of Homo sapiens with 6 samples.

Results

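The 9 transcripts described here belong to the HLA class I antigen presentation pathway. They were chosen by gene symbol (HLA-B, HLA-C, HLA-E, HLA-F, B2M, TAP1, TAP2, TAPBP and NLRC5), and each symbol matched 1 row of the 60504 genes in the table. RNA-seq was performed on WM164, a human melanoma cell line with a BRAFV600E genotype. The EV group carried an empty expression vector and the HDAC8 group an expression vector for HDAC8, a class I histone deacetylase, and each group had 3 libraries. Both groups had been transfected with Lipofectamine and were maintained in hygromycin, and whether the lines were pools or clones is not given in the sources used here. The comparison asks how these transcripts differed when HDAC8 was introduced.

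Class I molecules show fragments of a cell's own proteins to CD8 T cells. A heavy chain, encoded by an HLA gene, pairs with beta-2 microglobulin, encoded by B2M, and the pair is loaded with a peptide in the endoplasmic reticulum. The peptides are cut by the proteasome, carried across the membrane by the TAP1 and TAP2 transporter, and loaded with the help of tapasin, encoded by TAPBP. NLRC5 is a transactivator of class I genes. Loss of class I transcripts is a known route by which melanoma cells escape T cells.

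Total counts ran from 34741083 to 42041462 per library and overlapped between the groups. The HDAC8 transcript itself had normalized counts of 383.8, 404.4 and 478.8 in EV and 484.8, 445.5 and 473.7 in the HDAC8 libraries. A rise was not detectable (log2 fold change 0.15 with SE 0.28, adjusted p = 0.856 by DESeq2), so this transcript does not check the labels, and all directions below are given for libraries labelled HDAC8 relative to EV. Normalized counts are expected counts divided by the size factor of the library. Mitochondrially encoded genes took 9.66%, 10.2% and 12.8% of the counts in EV and 4.46%, 7.94% and 7.63% in the HDAC8 libraries, so this share was lower in every HDAC8 library and lowest in HDAC8 replicate 1, which also stood apart from the other HDAC8 libraries in several results below. The part of that share in the results was not tested. The 6 melanoma markers examined (MITF, SOX10, PMEL, TYR, MLANA and S100B) had counts in every library, and 4 of them were lower in the HDAC8 libraries by the rule given below. Their summed normalized count was 227468.5 to 309195.3 in EV and 127526.1 to 174995.3 in the HDAC8 libraries. Most of this sum came from PMEL, so it does not show the size of the other changes. The called markers were MLANA (28.7-fold lower), TYR (3.03-fold), PMEL (1.81-fold) and S100B (1.58-fold). The melanocyte lineage genes MITF and SOX10 were not called. Summed markers overlapped between the groups for leukocytes (10 genes, 115.2 to 255.2 in EV and 208.0 to 282.7 in HDAC8), endothelium (4 genes, 272.6 to 442.4 and 162.3 to 396.1) and keratinocytes (4 genes, 146.6 to 280.0 and 165.5 to 176.2). Of these, CD3D, MS4A1, CDH5 and KRT1 were at 0 in every library, and PTPRC, which nearly all leukocytes express, had 3 counts in total. LYZ and CSF1R (leukocytes), VWF and TIE1 (endothelium) and KRT10 (keratinocytes) had counts in every library and were not called. CD3E, of the same leukocyte list as PTPRC, differed between the groups. It was at 0 in every EV library and had 78.7, 91.2 and 50.1 normalized counts in the HDAC8 libraries. By the same rule CD3E was called higher (log2 fold change 8.66, adjusted p = 1.10e-06 by DESeq2). The part of the lower melanoma markers in the results was not tested.

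HLA-B, B2M and NLRC5 fell in the libraries labelled HDAC8, and no member rose. A gene counted as called at an adjusted p below 0.05 together with a log2 fold change of 0.58 or more in either direction, that is 1.49-fold. By this rule 3 of the 9 members were called lower and 0 higher, against 5.44% of all genes called lower, 5.57% called higher and 11% called in either direction. All 9 fitted log2 fold changes were below 0, from -1.28 to -0.21, with a median of -0.46, while the median over the 26162 genes tested was -0.0001. Tested against the 1.49-fold minimum itself, 0 of the 9 members were called, so the size of the 3 falls beyond that minimum is not established. All 9 members passed the minimum of 10 counts in total and had an adjusted p. In bulk RNA, fewer cells with a transcript and less of it per cell cannot be told apart. The labels call the libraries biological replicates, but nothing says that they came from separate cultures, and if they did not, the p-values measure only the spread between these samples.

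**Figure D1:**
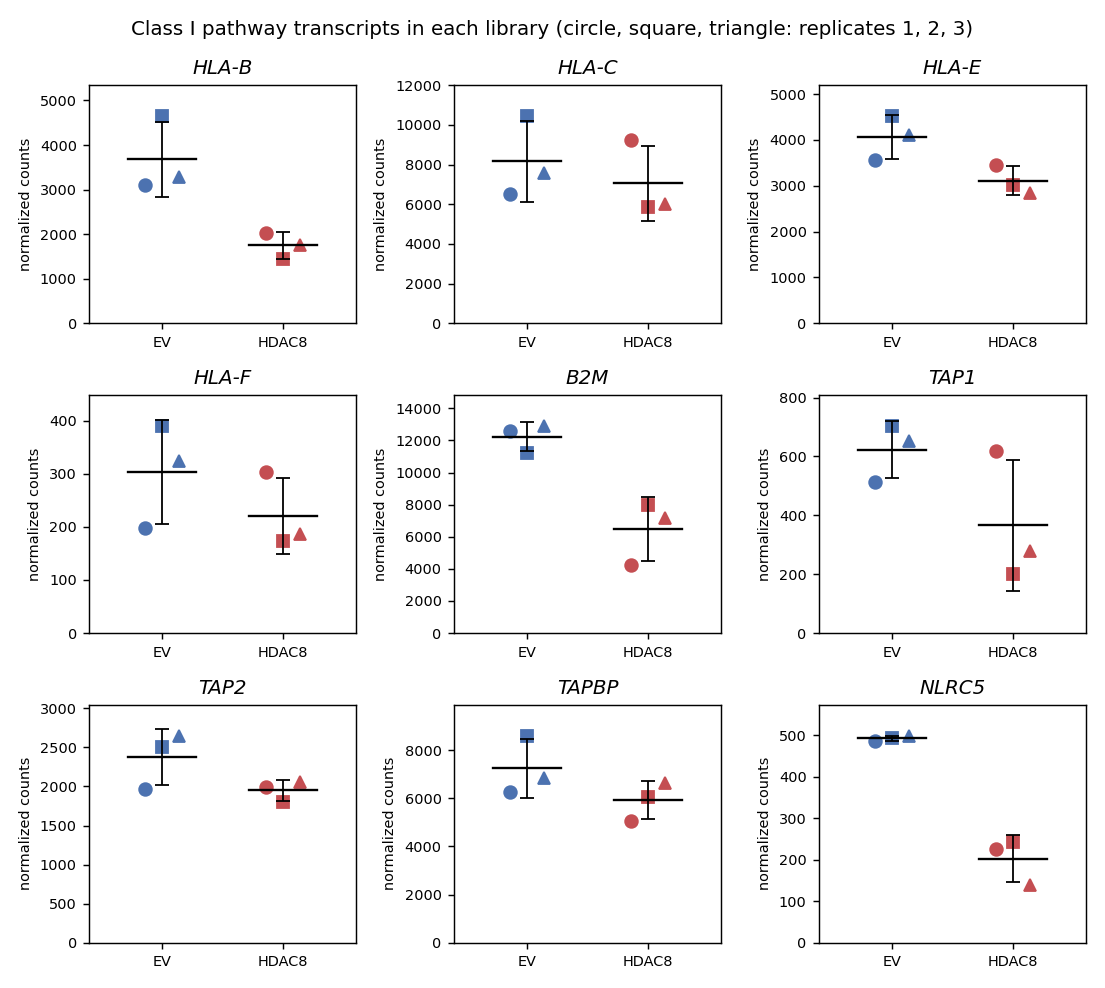
Normalized counts (vertical axis, from 0) of each of the 9 transcripts in the 3 EV and 3 HDAC8 libraries, with circles, squares and triangles for replicates 1, 2 and 3, and with the mean and SD in black. HLA-B, B2M, NLRC5 and HLA-E do not overlap between the groups, and HDAC8 replicate 1 lies among the EV libraries for TAP1, HLA-C and HLA-F.

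Heavy chains were examined first. HLA-B (ENSG00000234745, chromosome 6, 31353872 to 31367067, minus strand) encodes a classical heavy chain with many alleles. It had normalized counts of 3110.2, 4651 and 3275 in EV and 2031, 1445 and 1759 in the HDAC8 libraries. Every HDAC8 library lay below every EV library. The mean went from 3679 ± 846 to 1745 ± 293 (SD, n = 3), 2.11-fold lower with a 95% interval of 1.599 to 2.78 (log2 fold change -1.08 with SE 0.20, adjusted p = 4.50e-06 by DESeq2).

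HLA-C (ENSG00000204525, chromosome 6, 31268749 to 31272130, minus strand), the classical heavy chain that is also a main ligand of killer cell receptors, was not called. Its normalized counts were 6514, 10449 and 7552 in EV and 9255, 5865 and 6019.7 in the HDAC8 libraries. The groups overlapped through HDAC8 replicate 1, which lay above EV replicates 1 and 3, while HDAC8 replicates 2 and 3 lay below every EV library. DESeq2 gave a log2 fold change of -0.21 with SE 0.21 and an adjusted p of 0.627, and the 95% interval of the fold, 0.652 to 1.14, holds both no change and a fall past the 1.49-fold threshold. Without EV replicate 2 the log2 fold change was 0.0012, and without HDAC8 replicate 1 it was -0.46.

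The non-classical heavy chains were not called either. HLA-E (ENSG00000204592, chromosome 6, 30489509 to 30494194, plus strand), which presents signal peptides of other class I chains to natural killer cells, had normalized counts of 3561, 4522 and 4103 in EV and 3457, 3020.2 and 2844 in the HDAC8 libraries. These groups did not overlap. In 4 of the 9 members every HDAC8 library lay below every EV library, against 12.7% of all genes tested. These were HLA-E and the 3 called genes. In 0 members did every HDAC8 library lie above, against 11.3% of all genes tested. Genes with few counts can hardly separate in this way. Of the 14451 genes with a mean of at least 50 normalized counts, 2603 lay below and 2451 above. The change of HLA-E missed both thresholds (log2 fold change -0.39 with SE 0.16, adjusted p = 0.0999 by DESeq2). HLA-F (ENSG00000204642, chromosome 6, 29722775 to 29738528, plus strand) is a heavy chain of restricted expression that can reach the surface without peptide. Its normalized counts were 197.1, 390.4 and 324.1 in EV and 303.6, 174.1 and 186.2 in the HDAC8 libraries, and the groups overlapped (log2 fold change -0.46 with SE 0.42, adjusted p = 0.602 by DESeq2). HLA-F overlaps 3 annotated genes on the other strand, among them HLA-F-AS1. The use of strand in counting is not given in the sources used here, so its counts are uncertain, and the same holds for HLA-B, TAP1, TAPBP and NLRC5, which also have annotated genes on the other strand.

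Heavy chain genes are similar in sequence, and an expected count can split a read between them. The sum of the 4 heavy chains does not depend on how reads are split among them. It was 365.1, 509.7 and 385.9 CPM (counts scaled to a common library total) in EV and 420.5, 273.1 and 285.7 in the HDAC8 libraries, so the groups overlapped through HDAC8 replicate 1. The mean was 420.2 ± 78.2 (SD, n = 3) against 326.4 ± 81.7 (SD, n = 3), 0.777 times the EV value, and no test was run on this sum. The difference of -93.8 CPM was -49.1 without EV replicate 2 and -140.8 without HDAC8 replicate 1. The shares within the sum were as follows. HLA-B made up 23.2%, 23.2% and 21.5% in EV and 13.5%, 13.8% and 16.3% in the HDAC8 libraries. HLA-C made up 48.7%, 52.2% and 49.5% in EV and 61.5%, 55.8% and 55.7% in the HDAC8 libraries. Neither share overlapped between the groups, and HDAC8 replicate 1, whose sum was among the EV values, had the lowest HLA-B share.

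**Figure D2:**
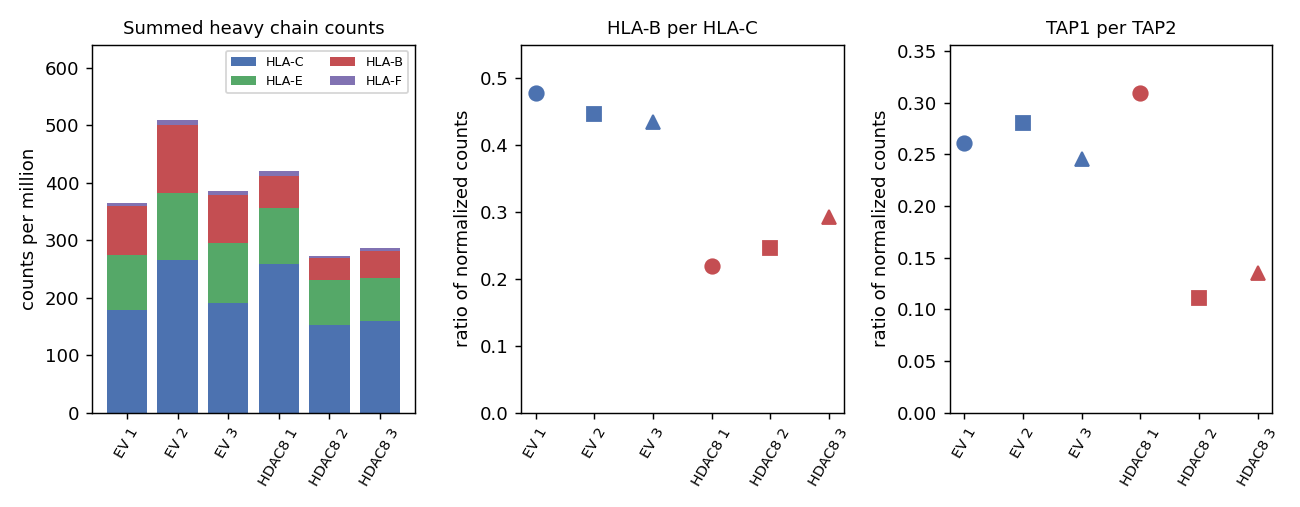
Left, summed CPM of the 4 heavy chains in each library, stacked by gene. Middle and right, the ratio of HLA-B to HLA-C and of TAP1 to TAP2 normalized counts in each library (axes from 0). HLA-B per HLA-C was 0.434 to 0.478 in EV and 0.219 to 0.292 in the HDAC8 libraries, while TAP1 per TAP2 in HDAC8 replicate 1 (0.310) was above all EV libraries.

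The promoters of HLA-B and HLA-C are shown because the ratio of these neighbours did not overlap between the groups although the windows are alike. RefSeq windows (GRCh38.p14) were found for 7 of the 9 members, without HLA-E and NLRC5. Each shows the 250 bases before the annotated start, 5′ to 3′ on the strand of the gene. Capitals mark matches, on either strand, to 4 short motifs: GAAA followed after any 2 bases by GAAA (the core of the interferon-stimulated response element, in 3.02% of all 35116 windows of this length), ATTGG (the inverted CCAAT or Y box, 32.0%), TGACG (the core of the cyclic AMP response element, part of the X2 box, 21.2%) and GGG, any 2 bases, TT, any base and CC (the NF-kappa-B motif, 5.07%). HLA-B is at chr6:31357180-31357429 and HLA-C at chr6:31272093-31272342, both on the minus strand.
HLA-B: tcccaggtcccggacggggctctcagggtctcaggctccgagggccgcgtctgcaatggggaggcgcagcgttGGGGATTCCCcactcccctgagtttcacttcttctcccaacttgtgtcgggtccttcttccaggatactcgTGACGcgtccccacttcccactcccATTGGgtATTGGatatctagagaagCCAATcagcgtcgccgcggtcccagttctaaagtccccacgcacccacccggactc
HLA-C: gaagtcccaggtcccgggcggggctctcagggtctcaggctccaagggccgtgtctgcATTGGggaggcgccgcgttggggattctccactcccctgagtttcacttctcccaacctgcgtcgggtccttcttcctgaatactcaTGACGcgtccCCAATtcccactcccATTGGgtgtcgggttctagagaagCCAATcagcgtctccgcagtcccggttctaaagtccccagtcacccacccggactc
The 2 windows were identical in 226 of 254 aligned columns (89.0%). Both held the TGACG core, with ATTGG and its reverse complement between it and the start. The HLA-B window held a match to the NF-kappa-B letters, at positions -177 to -168 from the start, and the HLA-C window held none. The HLA-F window had 79.8% identity with that of HLA-B and held 1 match to the interferon element, while those of HLA-B and HLA-C held 0. A match is a description of the letters and does not show binding. The search asked for these exact letters, so the lack of a match does not show that an element is absent. These are reference sequences and not those of the WM164 alleles.

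B2M (ENSG00000166710, chromosome 15, 44711358 to 44718851, plus strand) encodes the light chain that all class I heavy chains described here share. Its normalized counts were 12571, 11224 and 12910 in EV and 4209, 8004 and 7152 in the HDAC8 libraries. The groups did not overlap, and HDAC8 replicate 1 was the lowest. The mean went from 12235 ± 892 to 6455 ± 1991 (SD, n = 3), 1.90-fold lower with a 95% interval of 1.45 to 2.48 (log2 fold change -0.92 with SE 0.20, adjusted p = 8.29e-05 by DESeq2). Without HDAC8 replicate 1 the log2 fold change was -0.69, and B2M was still called (DESeq2 adjusted p = 1.62e-08).
HDAC8 replicate 1 thus had the lowest light chain count and the highest HLA-C count of its group. The 4 heavy chains together had 1.06, 1.78 and 1.18 normalized counts per B2M normalized count in EV, and 3.58, 1.31 and 1.51 in the HDAC8 libraries. This ratio overlapped between the groups.

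The B2M promoter (chr15:44711267-44711516, plus strand) is shown because it lies outside the HLA region and holds all 4 motifs.
B2M: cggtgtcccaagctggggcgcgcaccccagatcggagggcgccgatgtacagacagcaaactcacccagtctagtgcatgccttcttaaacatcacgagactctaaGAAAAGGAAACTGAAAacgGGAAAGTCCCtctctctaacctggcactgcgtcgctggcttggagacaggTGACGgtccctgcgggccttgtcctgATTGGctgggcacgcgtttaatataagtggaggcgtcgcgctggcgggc
It held 2 overlapping matches to the interferon element, followed by an NF-kappa-B match, a TGACG core and an ATTGG box. Its aligned identity with the HLA-B window was 47.3%, which lies within the 41.6% to 49.2% of the other pairs that are not 2 heavy chains.

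Peptide transport and loading genes showed smaller or less even differences. TAP1 (ENSG00000168394, chromosome 6, 32845209 to 32853816, minus strand) encodes a subunit of the peptide transporter. It had normalized counts of 514.9, 704.2 and 651.2 in EV and 619.1, 199.7 and 277.7 in the HDAC8 libraries. HDAC8 replicates 2 and 3 lay below every EV library and HDAC8 replicate 1 lay among them. With all 6 libraries TAP1 was not called (log2 fold change -0.77 with SE 0.39, adjusted p = 0.209 by DESeq2), and without HDAC8 replicate 1 it was called lower (log2 fold change -1.39, DESeq2 adjusted p = 2.96e-04).

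TAP2 (ENSG00000204267, chromosome 6, 32821833 to 32838739, minus strand), the other transporter subunit, showed normalized counts of 1969, 2509 and 2650 in EV and 1998, 1799 and 2057 in the HDAC8 libraries. The groups overlapped (log2 fold change -0.28 with SE 0.18, adjusted p = 0.369 by DESeq2). The ratio of TAP1 to TAP2 was 0.261, 0.281 and 0.246 in EV and 0.310, 0.111 and 0.135 in the HDAC8 libraries, so the balance of the subunits in HDAC8 replicate 1 was unlike that in the other HDAC8 libraries. TAPBP (ENSG00000231925, chromosome 6, 33299694 to 33314284, minus strand), the loading factor tapasin, showed normalized counts of 6279, 8595 and 6839.7 in EV and 5061, 6066 and 6614 in the HDAC8 libraries. These overlapped as well (log2 fold change -0.29 with SE 0.17, adjusted p = 0.283 by DESeq2). The 95% intervals of the fold were 0.642 to 1.05 for TAP2 and 0.652 to 1.02 for TAPBP, so falls past the 1.49-fold threshold were within them.

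The TAP1 promoter (chr6:32853705-32853954, minus strand) is the first of 2 RefSeq windows of this gene and is shown because TAP1 and the immunoproteasome gene PSMB9 are transcribed away from each other, with RefSeq starts 488 bases apart.
TAP1: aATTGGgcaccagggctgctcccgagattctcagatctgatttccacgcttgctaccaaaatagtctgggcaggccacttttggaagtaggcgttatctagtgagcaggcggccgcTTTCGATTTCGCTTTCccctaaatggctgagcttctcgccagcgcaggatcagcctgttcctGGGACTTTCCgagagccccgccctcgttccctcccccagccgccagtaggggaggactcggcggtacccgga
This window held 2 overlapping matches to the interferon element and 1 NF-kappa-B match, while the other TAP1 window (chr6:32852762-32853011) held 0 matches to the 4 motifs. The PSMB9 window, on the other strand, held neither motif.

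NLRC5 (ENSG00000140853, chromosome 16, 56989485 to 57083531, plus strand) had the largest fold of the 9 members with all 6 libraries, although TAP1 exceeded it without HDAC8 replicate 1 (-1.39 against -1.37 on the log2 scale) and HLA-B without HDAC8 replicate 3 (-1.08 against -1.07). Its normalized counts were 485.5, 492.2 and 498.5 in EV, where the libraries were nearly equal, and 225.7, 243.8 and 138.3 in the HDAC8 libraries. Every HDAC8 library lay below every EV library. Of the 3 called members, NLRC5 had the largest SE and the highest adjusted p by DESeq2. The mean went from 492.0 ± 6.49 to 202.6 ± 56.4 (SD, n = 3), 2.43-fold lower with a 95% interval of 1.52 to 3.87 (log2 fold change -1.28 with SE 0.34, adjusted p = 0.00298 by DESeq2). With each of the 6 libraries left out in turn it was still called, with log2 fold changes from -1.43 to -1.07.

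**Figure D3:**
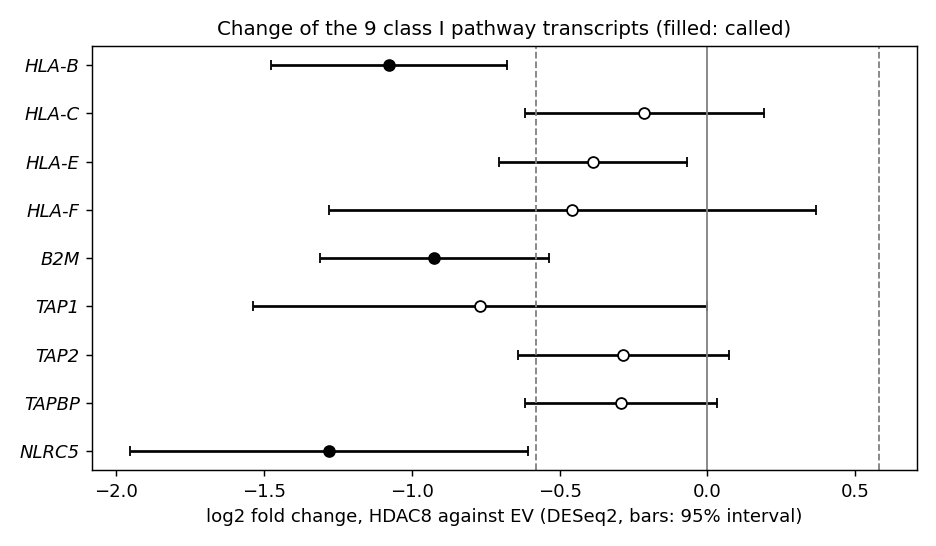
DESeq2 log2 fold change of HDAC8 against EV (horizontal axis) with its 95% interval for the 9 transcripts. Filled points are called, and dashed lines mark 0.58 in either direction. NLRC5, HLA-B and B2M lie at -1.28, -1.08 and -0.92, and only the intervals of NLRC5 and HLA-B end below the dashed line at -0.58.

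**Figure D4:**
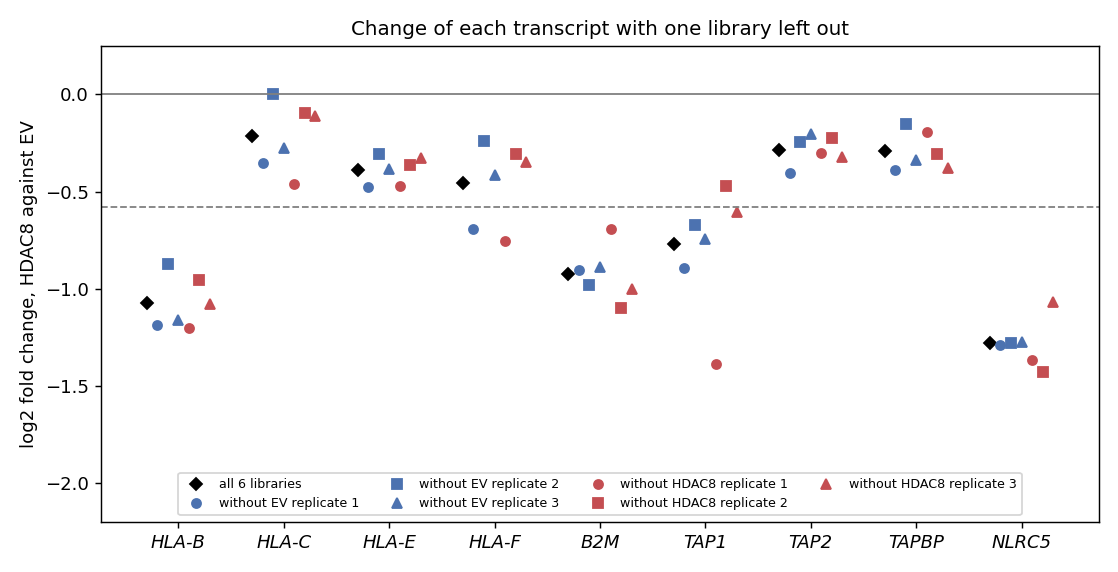
DESeq2 log2 fold change (vertical axis) of each transcript with all 6 libraries (black) and with each library left out in turn. HLA-B, B2M and NLRC5 stayed below the dashed line at -0.58, while TAP1 ran from -1.39 to -0.47 and HLA-C from -0.46 to 0.0012.

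Levels were also compared between the members, per length. The measure was TPM, a length-corrected share of the library, computed from the expected counts and the length of the canonical transcript in GENCODE release 44. In EV the order was B2M (mean 764.8 TPM, 665.1 to 854.4 over the libraries), HLA-C (309 ± 60.5 TPM, SD, n = 3), HLA-B (139.9 ± 25.8), TAPBP (123 ± 14.5), HLA-E (93.3 ± 5.14), TAP2 (24.6 ± 2.12), TAP1 (13.6 ± 1.19), HLA-F (11.9 ± 3.13) and NLRC5 (4.27 ± 0.282). Neighbours in this order did not overlap, apart from HLA-B with TAPBP and TAP1 with HLA-F. In the HDAC8 libraries HLA-B (75.6 ± 13.5 TPM, SD, n = 3) was at rank 5, below TAPBP (114 ± 15.6) and HLA-E (81.0 ± 8.35), and it overlapped with HLA-E. B2M (454 ± 137 TPM) overlapped with HLA-C (304 ± 84.2), from which it was apart in EV, only through HDAC8 replicate 1. There B2M had 297.9 TPM and HLA-C 400.7. In HDAC8 replicates 2 and 3 B2M had 553.6 and 510.8 TPM and HLA-C 248.1 and 262.9. The transactivator NLRC5 was last in both groups.

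Other genes of the pathway were examined in 7 lists of 74 genes, of which 72 were tested. DESeq2 called 4 of them higher and 5 lower, which is near the share over all genes (5.57% higher and 5.44% lower), and the median log2 fold change of the 72 was -0.02. The counts of the single lists below are to be read against the same shares. The genes that make the peptides came first. PSMB9, an interferon-inducible catalytic subunit of the immunoproteasome, fell the most of the immunoproteasome genes. It had normalized counts of 116.4, 189.6 and 199.98 in EV and 24.8, 5.12 and 12.0 in the HDAC8 libraries, 12.0-fold lower with a 95% interval of 4.60 to 31.2 (log2 fold change -3.58 with SE 0.70, adjusted p = 1.23e-05 by DESeq2).
Every HDAC8 library was far below every EV library. The annotated span of PSMB9 holds all of TAP1 on the other strand and also overlaps PSMB8 there. The use of strand in counting is not given, so the counts of PSMB9 and PSMB8 are uncertain too. Both PSMB9 and TAP1 had their highest count of the HDAC8 libraries in replicate 1. There TAP1 was among the EV values, while PSMB9 was below all of them. Without HDAC8 replicate 1 the log2 fold change of PSMB9 was -4.31.

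The other catalytic subunits of the immunoproteasome, PSMB8 and PSMB10, were in the same list and are named after their values were seen. PSMB8 had normalized counts of 239.1, 349.3 and 273.9 in EV and 255.7, 219.2 and 242.8 in the HDAC8 libraries, and the groups overlapped (DESeq2 adjusted p = 0.775). PSMB10 had 157.3, 162.5 and 175.4 in EV and 84.7, 45.1 and 87.1 in the HDAC8 libraries. Its groups did not overlap, yet it was not called (log2 fold change -1.19 with SE 0.54, adjusted p = 0.135 by DESeq2). In the list of 6 immunoproteasome and activator genes 1 was thus called lower and 0 higher. Of the 14 core genes of the constitutive proteasome 1 was called higher and 0 lower, with a median log2 fold change of 0.18. This was PSMB6, the subunit that PSMB9 replaces in the immunoproteasome. Its normalized counts were 844.1, 1112 and 928.0 in EV and 2653, 1728 and 1503 in the HDAC8 libraries. PSMB6 rose without overlap between the groups (log2 fold change 1.03 with SE 0.24, adjusted p = 4.21e-04 by DESeq2), while its counterpart PSMB9 fell.

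Peptide trimming, editing and folding genes of the endoplasmic reticulum were mostly not called. In this list of 10 genes 1 was called higher and 0 lower, and the median log2 fold change was -0.03. GANAB, the catalytic subunit of glucosidase II, which trims the sugars of newly made glycoproteins, rose from 22741, 31515 and 24938 normalized counts in EV to 58806, 44895 and 46569 in the HDAC8 libraries (log2 fold change 0.92 with SE 0.16, adjusted p = 1.92e-07 by DESeq2). The aminopeptidase ERAP1, named after its values were seen, missed both thresholds (log2 fold change -0.45, DESeq2 adjusted p = 0.0507).

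Of the 15 factors that act on class I promoters, 2 were called lower and 0 higher, with a median log2 fold change of -0.15. RFX5 is a subunit of the RFX complex that binds the X box, where NLRC5 is recruited. It had normalized counts of 1667, 1745.5 and 1979 in EV and 1096, 1100 and 787.3 in the HDAC8 libraries. RFX5 fell without overlap (log2 fold change -0.85 with SE 0.21, adjusted p = 8.55e-04 by DESeq2), as NLRC5 did. IRF2, which binds interferon-stimulated response elements, fell from 663.8, 688.3 and 647.2 to 398.5, 316.5 and 401.8 (log2 fold change -0.84 with SE 0.27, adjusted p = 0.0181 by DESeq2). Named after its values were seen, IRF1, which carries the interferon signal to these promoters, had a log2 fold change of -0.15 (DESeq2 adjusted p = 0.932). IRF1 had 609.7 normalized counts in HDAC8 replicate 1, above every EV library, and 203.8 and 133.9 in the other HDAC8 libraries, below every EV library (306.3 to 416.7).

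Interferon receptors, Janus kinases and their regulators made up a list of 10 genes, of which 1 was called lower and 0 higher. This was JAK2, a kinase of the interferon gamma receptor, with normalized counts of 2007, 1471 and 1455 in EV and 950.9, 1159 and 1159 in the HDAC8 libraries (log2 fold change -0.59 with SE 0.21, adjusted p = 0.0428 by DESeq2). The fold was close to the threshold, and the call was lost whichever of the 6 libraries was left out. IRF2 also lost its call when EV replicate 1, 2 or 3 or HDAC8 replicate 2 or 3 was left out.

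Genes that lower class I by repression or turnover were 10 in number, of which 9 were tested. DESeq2 called 2 of them higher and 0 lower. WWP2, a ubiquitin ligase, rose from 1812, 2036 and 1683 normalized counts to 3945, 3130 and 3198 (log2 fold change 0.89 with SE 0.17, adjusted p = 7.55e-06 by DESeq2). SUSD6, a membrane protein that acts with WWP2 and TMEM127 in the turnover of surface class I molecules, rose from 1132.5, 947.9 and 797.0 to 1649, 1447 and 1612 (log2 fold change 0.71 with SE 0.21, adjusted p = 0.00878 by DESeq2). TMEM127, the remaining partner and named after its values were seen, had a log2 fold change of 0.04 (DESeq2 adjusted p = 0.941). The call of SUSD6 was lost without EV replicate 3 (DESeq2 adjusted p = 0.110) or HDAC8 replicate 3 (DESeq2 adjusted p = 0.0719).

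Class I-like heavy chains outside the members made up a list of 9 genes, of which 8 were tested, 1 was called lower and 0 higher. PROCR encodes the endothelial protein C receptor, which has a class I-like fold but does not present peptides. It had normalized counts of 260.05, 238.2 and 250.2 in EV and 1.71, 0 and 14.2 in the HDAC8 libraries (log2 fold change -5.60 with SE 0.79, adjusted p = 9.09e-11 by DESeq2). Each HDAC8 library was far below each EV library. The size of the fold rested on HDAC8 replicate 3, without which the log2 fold change was -8.08. HDAC8 replicates 1 and 2 lay under a floor of 3 counts, so -8.08 is not a measured size. MICA, MICB, HFE and MR1, also class I-like and named after their values were seen, were not called.

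**Figure D5:**
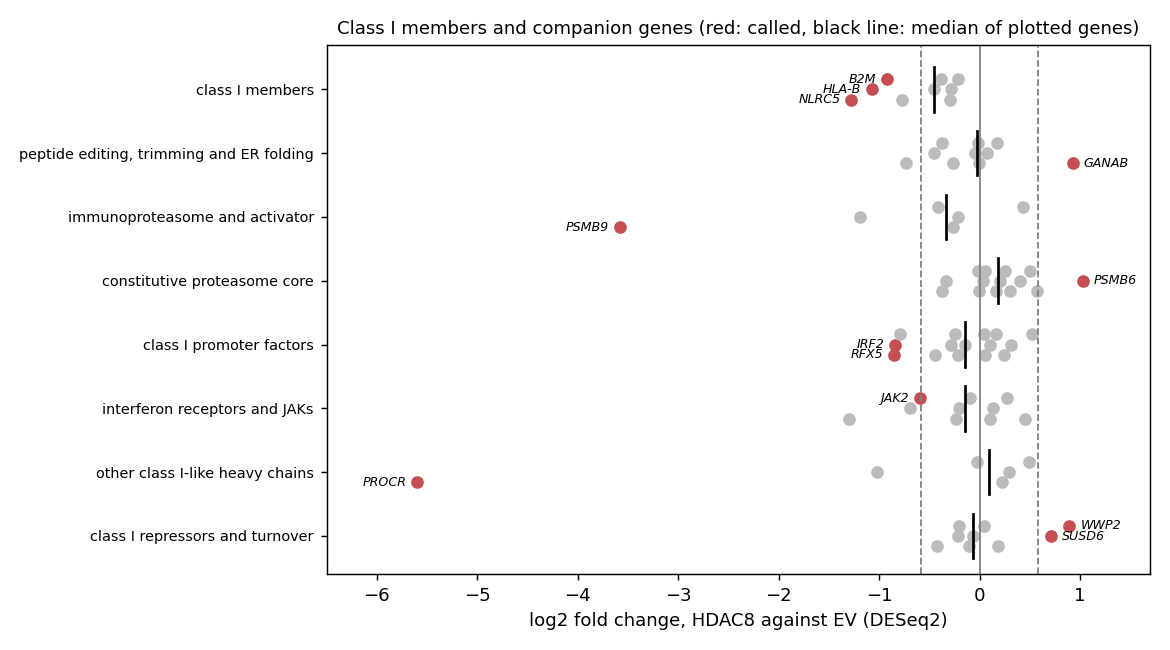
DESeq2 log2 fold change of HDAC8 against EV (horizontal axis) for the 9 members and the genes of the 7 other lists that had an adjusted p. Red points are called and the black line of each row is its median. Calls in the lists were few and fell on both sides of 0, with PROCR (-5.60) and PSMB9 (-3.58) farthest from it.

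Genes were also named by their pattern over the 6 libraries, among 14442 genes with a mean of at least 50. They were ranked by correlation with the mean standardized profile of HLA-B, HLA-C, HLA-E, HLA-F and B2M. B2M did not follow the 4 heavy chains within the groups. It was lowest of its group in EV replicate 2 and HDAC8 replicate 1, where each heavy chain was highest. The named genes are thus like the mean profile and need not be like B2M. Among the highest Pearson r were those of BCAT2 (0.997), PACSIN2 (0.993), TM4SF19 (0.992) and GPX4 (0.990). None of these 4 was called. The 6 points share their libraries and depth, and the values are a description.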

How the data were processed

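WM164 libraries were grouped by their labels (EV and HDAC8, 3 each). The authors deposited expected counts per gene, estimated with RSEM. The genome build, annotation and use of strand are not given in the sources used here, and the labels and the methods name different RNA extraction kits. Expected counts were rounded to whole numbers, genes with at least 10 counts in total were kept, and groups were compared with the Wald test of DESeq2 1.42.0 (R 4.3.3) with Benjamini-Hochberg adjustment over all genes. Intervals are at 95% from the DESeq2 standard error. edgeR 4.0.16, limma 3.58.1, other size factors, other filters, a test against the fold minimum, a replicate block and leaving out each library were alternatives, and the fit without mitochondrially encoded genes was added after seeing the data. The procedure was tested on simulated data. No library was a duplicate of another. The members and lists were chosen with earlier results of these data known. The members and every called gene of the lists were named, and others were named as stated. Positions and lengths were taken from GENCODE release 44 (GRCh38) and promoters from RefSeq (GRCh38.p14). MARCHF9 and MARCHF4 were matched under their older symbols. Correlations of the deviations of same-numbered EV and HDAC8 libraries were -0.03, -0.07 and 0.04, so the numbers were not treated as pairs. Some genes of the lists and of the correlated genes are not reported here.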

Additional observations from a re-analysis of the deposited data

How the results depend on the processing

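Apart from the test against the fold minimum, all 14 alternatives called HLA-B, B2M and NLRC5 lower. Their log2 fold changes were -1.20 to -0.87 for HLA-B, -1.10 to -0.69 for B2M and -1.43 to -1.07 for NLRC5. The DESeq2, edgeR or limma adjusted p was at most 0.0365. Tested against the fold minimum, 292 genes were called higher and 291 lower, with 0 of the 9 members lower and, in the other lists, 0 higher and 2 lower, because that test asks for more than a difference from 0. With the replicate block 3 genes of the other lists were called lower, since IRF2 (DESeq2 adjusted p = 0.0660) and JAK2 (DESeq2 adjusted p = 0.121) lost their calls, and the 3 members kept theirs. Leaving out each library in turn gave 877 to 1218 genes higher and 746 to 1378 lower, with 746 lower without EV replicate 3. It gave 3 to 4 members lower, and in the other lists 3 to 6 genes higher and 3 to 5 lower. HLA-C reversed to a log2 fold change of 0.0012 without EV replicate 2 (-0.46 to 0.0012 over the 6 fits), and TAP1 was called without HDAC8 replicate 1 at -1.39 (-1.39 to -0.47 over the 6 fits). The cause was not tested. With total-count size factors 1318 genes were called higher and 1019 lower. Without mitochondrially encoded genes the mean sum of the 4 heavy chains was 471.5 against 348.7 CPM, in place of 420.2 against 326.4. JAK2 also lost its call with limma (adjusted p = 0.0793) and with total-count size factors (DESeq2 adjusted p = 0.0691).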

Other observations

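The 7 members on chromosome 6 lie between positions 29722775 and 33314284 (GRCh38), a span drawn after their values were seen. Among the 102 genes there with a mean of at least 50 normalized counts, DESeq2 called 14 higher and 3 lower, with a median log2 fold change of 0.31. The 102 include the 7 members, and HLA-B and PSMB9 are among the 3 called lower. Of the 14451 genes of that mean in the whole table, 1065 were called higher and 959 lower, with a median of -0.0014. CD3E, a T cell receptor subunit among the leukocyte markers above, had 0 counts in the EV libraries. It had 78.7, 91.2 and 50.1 normalized counts in those labelled HDAC8, at least 24.7-fold higher against a floor of 3 counts per library. CD3D, another subunit, was at 0 in every library.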
